A study of Homo sapiens with 6 samples.

Results

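The acetylcholine receptor of skeletal muscle and the genes that anchor it at the synapse were examined in Rh30 cells, with CHRNA5, a nicotinic subunit of neurons, beside them. The 10 genes were CHRNA1, CHRNB1, CHRND, CHRNG, CHRNE, CHRNA5, MUSK, RAPSN, DOK7 and LRP4, taken by symbol from a table of 35268 named genes, and each matched 1 row. They were selected with their drug and DMSO values in view, and CHRNA5 was picked as the largest fall, so their differences between drug and DMSO are given below as a description. No p-value is printed for them, and how many passed limma's threshold is stated only as a count from which nothing is read. Rh30 is an established cell line from a fusion-positive rhabdomyosarcoma, a childhood cancer of the muscle lineage driven by PAX3-FOXO1. All 6 samples were of this 1 line. In 3 samples the cells had been kept for 24 hours in YK-4-279's solvent, DMSO, alone, and in the other 3 in the compound itself at 1 µM (the drug, below), a small molecule first described as blocking the binding of EWS-FLI1, an ETS fusion factor, to RNA helicase A. The labels number the replicates 1, 2 and 3 in each group and do not say whether they were separate cultures, so standard errors and p-values measure the spread between these samples, which may be technical. The study measured them to learn how the drug changes gene expression in this cancer.

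The muscle receptor is a ligand-gated channel of alpha, beta, delta and gamma subunits before innervation, in which the epsilon subunit takes the place of the gamma subunit as the synapse matures. Nerve-derived agrin binds LRP4, which activates the receptor tyrosine kinase MUSK with help from the adaptor DOK7, and the scaffold protein rapsyn (RAPSN) then holds the receptors in clusters. Transcription of the subunit genes in muscle is driven by MYOD1 and MYOG through E-boxes, and at the synapse by the ETS factor GABP through the N-box. CHRNA5 works differently: it is an accessory subunit of neuronal receptors, and its gene lies in a cluster with CHRNA3 and CHRNB4.

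The deposited values were normalized counts, that is reads per gene divided by a factor of each library. Whole reads could be recovered for 100% of the values, and the libraries held 16724650 to 24677433 reads. DMSO replicate 1 stood apart, with a mean correlation with the other libraries across genes of 0.989, against 0.992 to 0.993 for the others. It had 6.05% of its reads on mitochondrial genes, against 4.74% to 5.03%. It was the lowest of the 6 libraries for 28.8% and the highest for 33.7% of the 13930 genes tested, so the main results that moved without it are also given without it. As a check of the labelled cell type, all 8 rhabdomyosarcoma markers were read, with summed normalized counts of 87088 to 102454 in DMSO and 94045 to 98843 with drug. Differences are given as log2 fold changes of the normalized count + 1, drug minus DMSO, with the standard error (SE) and 95% interval from limma. An exact permutation test of 3 against 3 cannot give a p below 0.1.

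CHRNA1 encodes the alpha subunit, which carries most of the acetylcholine binding site and is present in every muscle receptor. In order of replicate number, here and below, the DMSO libraries gave 7026, 6576 and 6434 normalized counts and the drug-treated libraries 6506, 6680 and 6536. The groups overlapped, and DMSO replicate 1 was the highest library. The means were 6679 ± 309 and 6574 ± 92.7 (SD, n = 3 each), and the log2 fold change was -0.02 (SE 0.06, 95% interval -0.14 to 0.10), which turned to 0.02 without DMSO replicate 1 and to 0.03 under quantile normalization. The gene lies on the minus strand at chr2:174747592-174787935 (GRCh38).

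CHRND encodes the delta subunit, which completes one of the binding sites. It was read at 2605, 2869 and 2782 normalized counts in DMSO and at 2859, 2742 and 2601 with drug. The groups covered nearly the same range, with means of 2752 ± 134 and 2734 ± 129 (SD, n = 3 each). The log2 fold change was -0.01 (SE 0.06, 95% interval -0.14 to 0.13), and it lay above 0 in 6 of 15 alternative analyses and below 0 in 9. CHRND lies at chr2:232525993-232536667, on the plus strand and just upstream of CHRNG.

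CHRNB1, at chr17:7445061-7457710 on the plus strand, encodes the beta subunit. Its normalized counts were 1062, 1147 and 1068 in DMSO and 937, 1005 and 1022 with drug. All 3 drug-treated libraries lay below all 3 DMSO libraries, and the nearest values were 1022 and 1062. The means were 1092 ± 47.7 and 988 ± 44.6 (SD, n = 3 each), and the log2 fold change was -0.14 (SE 0.07, 95% interval -0.29 to 0.0055). Of its exon bases, 14.5% are shared with a non-coding RNA on the same strand, so reads there could belong to either gene.

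CHRNG and CHRNE encode the subunits that exchange as muscle matures, gamma in the fetal receptor and epsilon in the adult one. CHRNG was read at 477, 457 and 479 normalized counts in DMSO and at 548, 487 and 490 with drug. Every drug-treated library was above every DMSO library, although by only a small margin outside drug-treated replicate 1. The means were 471 ± 12.4 and 508 ± 34.6 (SD, n = 3 each), and the log2 fold change was 0.11 (SE 0.08, 95% interval -0.07 to 0.29), or 0.05 without drug-treated replicate 1. CHRNG lies at chr2:232539692-232548115 on the plus strand, and 66.9% of its exon bases are also exons of TIGD1 on the other strand. TIGD1 had 361, 308 and 262 normalized counts in DMSO and 317, 376 and 345 with drug. The libraries kept strand by their protocol, but the strand setting of the counting is not given in the sources used here, so reads of CHRNG and TIGD1 may not have been told apart.

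CHRNE was all but unread. It had 4, 2 and 4 reads in the DMSO libraries and 3, 1 and 0 in the drug-treated ones, which are 5.04, 2.0 and 3.34 against 2.57, 1.09 and 0 normalized counts. A count of 0 in drug-treated replicate 3 allows up to 3 reads of its 19876724, counting error only. With 10 reads in all against 4, CHRNE fell under the minimum mean of 10 normalized counts and no difference could be measured at this depth. The gene lies at chr17:4897771-4934438 on the minus strand, and 48.6% of its exon bases overlap C17orf107 on the other strand, itself at 0 in every library except for 0.835 normalized counts in DMSO replicate 3. The gamma share of gamma plus epsilon, from normalized counts per kilobase of exon, was 98.7%, 99.5% and 99.1% in DMSO and 99.4%, 99.7% and 100% with drug. These are means of 99.1% ± 0.379 and 99.7% ± 0.289 (SD, n = 3 each), and the groups overlapped. In both groups the reads counted to these genes were thus nearly all those of CHRNG, within the limit that reads of the overlapping genes may be included.

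The stretches before the RefSeq starts of CHRNA1 and CHRNE are shown because these were the muscle subunit genes with the most and the fewest reads, and because their promoters are textbook examples of E-box and N-box control. Each line gives the 250 bases up to the start, 5′ to 3′ on the strand of the gene (RefSeq, GRCh38.p14), with every E-box (CANNTG) and every N-box core (CCGGAA) in capitals. The CHRNA1 window is chr2:174764473-174764722 and the CHRNE window chr17:4903099-4903348, both on the minus strand and both inside the longer gene spans of GENCODE.
CHRNA1: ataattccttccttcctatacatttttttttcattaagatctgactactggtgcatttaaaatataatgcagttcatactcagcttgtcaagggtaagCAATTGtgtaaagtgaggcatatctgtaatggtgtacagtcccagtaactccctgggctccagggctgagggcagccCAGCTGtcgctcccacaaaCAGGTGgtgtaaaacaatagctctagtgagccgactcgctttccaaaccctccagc
CHRNE: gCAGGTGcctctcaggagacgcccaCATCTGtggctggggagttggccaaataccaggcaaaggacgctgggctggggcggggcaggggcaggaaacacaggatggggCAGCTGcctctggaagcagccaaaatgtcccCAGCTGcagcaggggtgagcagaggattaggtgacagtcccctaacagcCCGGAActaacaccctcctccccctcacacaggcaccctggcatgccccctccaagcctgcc
The CHRNA1 window held 3 E-boxes, whose first bases lie 152, 75 and 56 bases before the start, and no CCGGAA on either strand. The CHRNE window held 4 E-boxes, at 249, 225, 142 and 111 bases before the start, and 1 CCGGAA at 62. An E-box reads the same on both strands as CANNTG, and CCGGAA was searched on both strands and contains GGAA, the core of ETS sites. Of 35116 promoter windows of this length in the RefSeq table, 61.8% held CANNTG, 14.5% CCGGAA and 92.7% GGAA. The table held 6 of the 10 genes, in 7 windows, since DOK7 had 2 starts, and did not hold CHRNG, CHRNA5, RAPSN and LRP4. Among the others CHRND had 1 E-box, at 27, and 1 CCGGAA on the opposite strand, at 66. CHRNB1 had 4 E-boxes, MUSK had 3 and the DOK7 windows had 1 and 0, without CCGGAA. A match describes the letters and is no evidence of binding.

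LRP4, the agrin receptor, had 731, 743 and 760 normalized counts in DMSO and 829, 786 and 734 with drug. The groups overlapped through drug-treated replicate 3. The means were 745 ± 14.3 and 783 ± 47.2 (SD, n = 3 each), and the log2 fold change was 0.07 (SE 0.07, 95% interval -0.09 to 0.23). It was 0.03 without drug-treated replicate 1 and 0.12 without drug-treated replicate 3. LRP4 lies at chr11:46856717-46918642 on the minus strand.

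MUSK, the kinase that LRP4 activates, lies at chr9:110668779-110806558 on the plus strand. It was read at 541, 468 and 494 normalized counts in DMSO and at 564, 567 and 515 with drug. DMSO replicate 1 was above drug-treated replicate 3, which alone made the groups overlap. The means were 501 ± 37.1 and 549 ± 29.1 (SD, n = 3 each), and the log2 fold change was 0.13 (SE 0.09, 95% interval -0.05 to 0.32), or 0.19 without DMSO replicate 1 and 0.08 without DMSO replicate 2.

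DOK7, the adaptor that MUSK needs for full activity, lies at chr4:3463306-3501473 on the plus strand. Its normalized counts were 424, 542 and 524 in DMSO and 623, 544 and 594 with drug. All drug-treated libraries were above all DMSO libraries, but 542 and 544 nearly met, and DMSO replicate 1 was the low library. On the log2 scale that library differed from the mean of the other 5 by -0.41. The means were 497 ± 63.7 and 587 ± 39.7 (SD, n = 3 each), with a log2 fold change of 0.25 (SE 0.10, 95% interval 0.03 to 0.46) and of 0.14 without DMSO replicate 1.

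RAPSN, the receptor scaffold, showed the same library more sharply. Its normalized counts were 2040, 3181 and 3144 in DMSO and 3427, 3295 and 3208 with drug. The drug-treated libraries were all higher, with 3181 and 3208 as the nearest values, and DMSO replicate 1 differed from the mean of the other 5 by -0.67 on the log2 scale. The means were 2788 ± 648 and 3310 ± 110 (SD, n = 3 each), and the log2 fold change was 0.28 (SE 0.13, 95% interval 0.00085 to 0.55). Without DMSO replicate 1 it was 0.07. RAPSN and DOK7 also have the highest GC content of the 10 transcripts, 62.5% and 66.5% in their longest forms, against 38.0% for MUSK and 41.9% for CHRNA5. With each library's dependence on GC content and transcript length removed, the log2 fold changes were 0.19 for RAPSN, 0.17 for DOK7, 0.22 for MUSK and -0.69 for CHRNA5. RAPSN lies at chr11:47437764-47449143 on the minus strand.

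CHRNA5, at chr15:78565520-78595269 on the plus strand, had the largest log2 fold change in size of the 9 genes tested, which is how it was picked. Its normalized counts were 141, 160 and 164 in DMSO and 94.3, 85.8 and 96.0 with drug, from 112, 160 and 197 reads and from 110, 79 and 96 reads. The groups were well apart, with a gap from 96.0 to 141 against a range of 141 to 164 within DMSO and of 85.8 to 96.0 with drug. The mean went from 155 ± 12.3 to 92.1 ± 5.45 (SD, n = 3 each), a fold of 0.593 and a log2 fold change of -0.75 (SE 0.13, 95% interval -1.03 to -0.46). Its log2 fold change stayed between -0.81 and -0.69 in 15 alternative analyses, and without DMSO replicate 1 it was -0.81.

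Among the 13930 genes tested CHRNA5 had the 34th largest fall in log2 fold change, which describes the values it was picked on. The 33 genes with larger falls all had a mean of at most 69.0 normalized counts, and 2 of them had an adjusted p under 0.05. Its pattern over the 6 libraries was most like that of E2F2, ZNF672 and DUT, with Pearson's r of 0.997, 0.995 and 0.994 on log2(normalized count + 1). These were the highest of 10698 genes with a mean of at least 100, of which 93 had an r above 0.95. E2F2 is a cell cycle transcription factor and DUT keeps uracil out of DNA. Their log2 fold changes were smaller than that of CHRNA5, at -0.31, -0.29 and -0.32. The 6 points fall into the drug and DMSO groups and share library and depth, so a high r includes the difference between the groups.

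**Figure D1:**
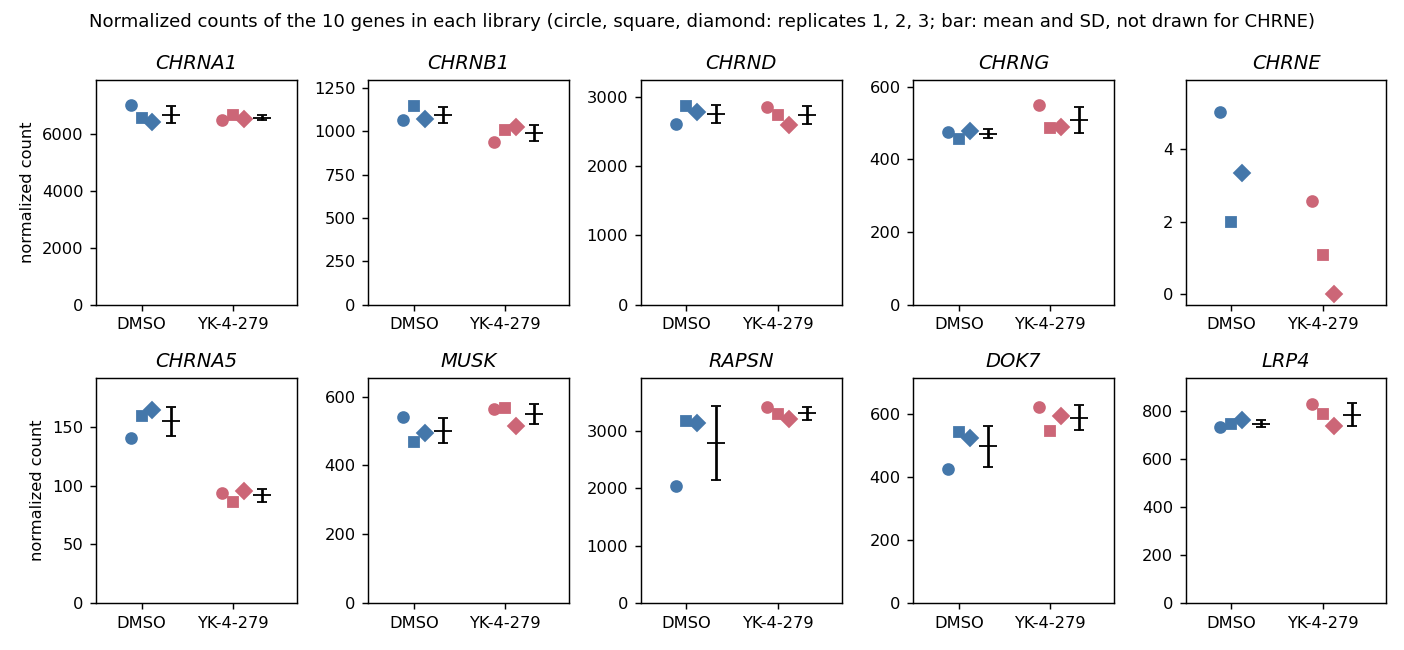
Normalized counts (y axis, from 0, linear) of the 10 genes in the 3 DMSO and 3 drug-treated libraries (the latter under the name of the compound), with circles, squares and diamonds for replicates 1, 2 and 3 and a bar for the mean and SD, except for CHRNE, where the axis starts just below 0. The CHRNA5 libraries with drug lie between 85.8 and 96.0, all below the DMSO libraries at 141 to 164, while for RAPSN DMSO replicate 1 lies alone at 2040.

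Of the 10 genes 9 could be tested. CHRNA5 alone had an adjusted p under 0.05, written below as called, and was lower, beside 3.41% of all genes tested (2.15% lower and 1.26% higher). The drug and DMSO libraries did not overlap for 5 of the 9, of which 2 were lower (CHRNB1 and CHRNA5) and 3 higher (CHRNG, RAPSN and DOK7), beside 26.0% of all genes (15.1% lower and 10.9% higher). Since the genes were chosen on this contrast, nothing is read from these counts. Log2 fold changes were below 0 for 4 genes and above 0 for 5, with a median of 0.07 against -0.0075 over all genes tested, and apart from CHRNA5 they ran from -0.14 to 0.28. The direction was the same in all 15 alternatives for each of the 9 genes except CHRNA1 and CHRND.

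The counts of calls moved with single libraries. Without DMSO replicate 1, CHRNA5 and CHRNB1 were called, beside 13.1% of all genes. Without drug-treated replicate 1, 2 or 3 no gene of the 9 was called by limma, beside 0.137%, 0.180% and 0.331% of all genes. At an unadjusted p under 0.05 there were then 1, 2 and 1 of the 9, beside 11.7%, 13.7% and 13.2% of all genes. Nothing is read from these counts either. The log2 fold change of CHRNA5 in these fits was -0.76, -0.70 and -0.78, against -0.75 with all libraries.

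**Figure D2:**
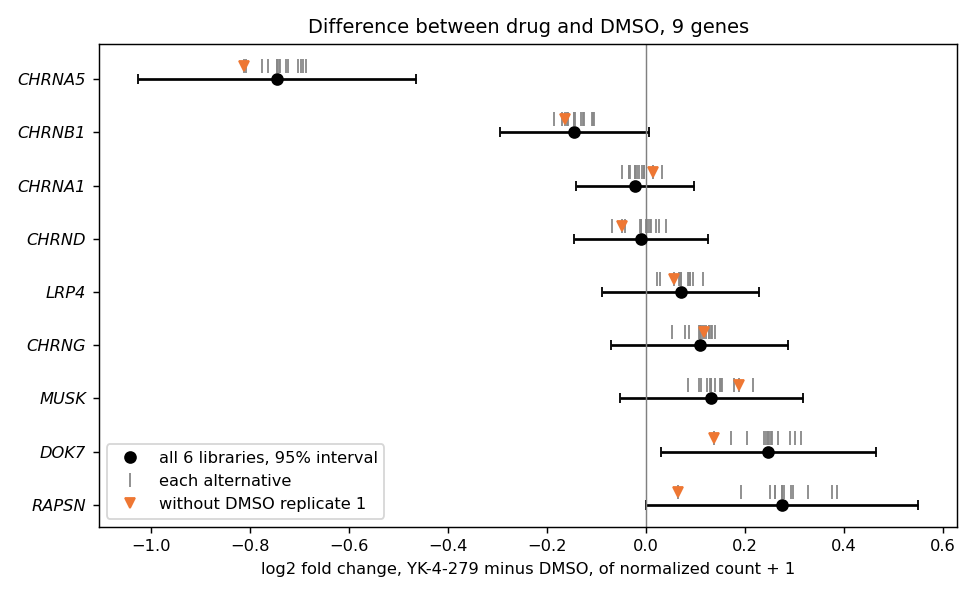
Log2 fold change (x axis, drug minus DMSO, of the normalized count + 1) for the 9 genes tested, with black points and bars for the estimate and its 95% interval over all 6 libraries, grey ticks for each alternative and orange triangles for the value without DMSO replicate 1. CHRNA5 lies at -0.75 and the others between -0.14 and 0.28, and the triangles of RAPSN and DOK7 lie at 0.07 and 0.14.

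To compare levels between genes, normalized counts were divided by the length of all exons of the gene in GENCODE. On this scale RAPSN and CHRNA1 were highest in DMSO, at 1486 ± 346 and 1341 ± 62.0 normalized counts per kilobase (SD, n = 3 each here and below), and their ranges overlapped. CHRND followed at 879 ± 42.9 and CHRNB1 at 252 ± 11. The alpha and delta subunits were thus well above the beta subunit per length. DOK7 and CHRNG came next at 123 ± 15.8 and 108 ± 2.83, with ranges that overlapped. LRP4 was at 85.1 ± 1.63, MUSK at 54.6 ± 4.04, CHRNA5 at 42.8 ± 3.40 and CHRNE at 0.983 ± 0.433. Apart from the RAPSN and CHRNA1 pair and the DOK7 and CHRNG pair, no neighbours in this order had overlapping DMSO ranges. With drug CHRNA5 was at 25.4 ± 1.504 and MUSK at 59.8 ± 3.17 normalized counts per kilobase, and the order of the genes was the same. With the longest transcript as the length, CHRNA1 came first at 3168 ± 147 and RAPSN second at 1719 ± 400, the others kept their order, and no neighbours overlapped. The first rank depends on which transcripts the cells make, which was not measured here.

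**Figure D3:**
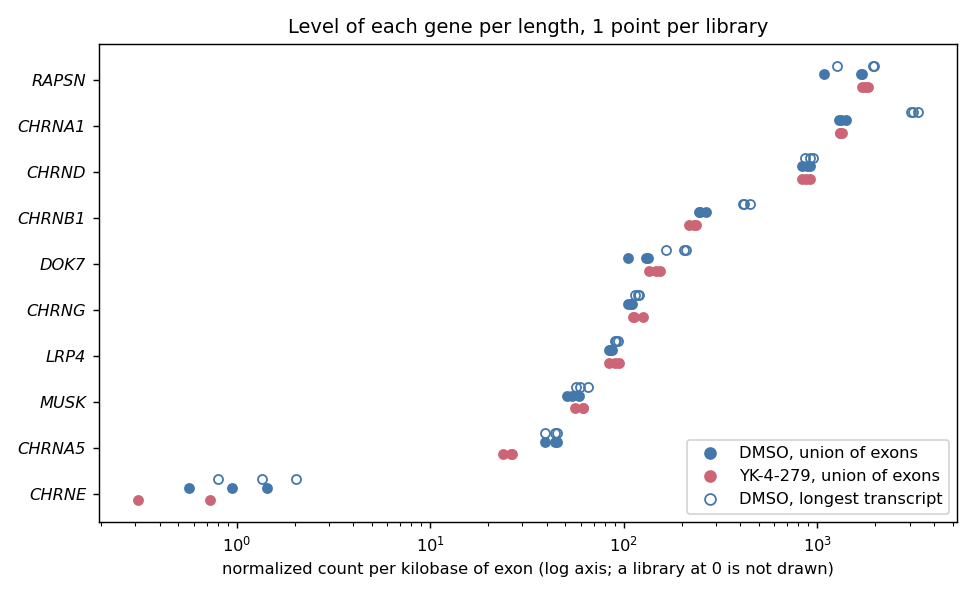
Level of the 10 genes in normalized counts per kilobase of exon (x axis, log scale), 1 point per library, with filled points for the union of exons and open points for the longest transcript in DMSO. In DMSO the genes run from RAPSN and CHRNA1 at 1486 and 1341 down to CHRNE at 0.983 by the union of exons.

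The genes around CHRNA5 were looked at next, to see whether its neighbours had moved as well. Within 250 kilobases, 8 other protein-coding genes are annotated. CHRNA3, which pairs with CHRNB4 in ganglionic receptors and shares 5.47% of the CHRNA5 exon bases on the other strand, had 29.0, 16.0 and 18.4 normalized counts in DMSO and 24.0, 14.1 and 15.0 with drug (log2 fold change -0.24, SE 0.33, adjusted p = 0.744, and 0.01 without DMSO replicate 1). CHRNB4 was at 1.26 to 4.17 in DMSO and 0.857 to 6.52 with drug, too low to test, and CRABP1, a retinoic acid binding protein gene, was at 0 in every library. IREB2, an iron-responsive RNA-binding protein gene, was lower in every drug-treated library, at 4204 ± 346 against 3796 ± 19.0 normalized counts, but did not pass (log2 fold change -0.14, adjusted p = 0.250, and -0.08 without DMSO replicate 1). PSMA4, a proteasome subunit gene, had a log2 fold change of -0.13 (adjusted p = 0.342), HYKK, which encodes hydroxylysine kinase, of -0.10 (adjusted p = 0.767), ADAMTS7, a secreted protease gene, of -0.04 (adjusted p = 0.875), and MORF4L1, a chromatin protein gene, of -0.03 (adjusted p = 0.848). None of the 6 neighbours tested passed limma's test, 1 (IREB2) had an unadjusted p under 0.05, which it lost without DMSO replicate 1, and edgeR and DESeq2 called 0. Their log2 fold changes were between -0.24 and -0.03, and between -0.11 and 0.01 without that library. A further 23% of the CHRNA5 exon bases are shared with a non-coding RNA on the other strand, which limits the CHRNA5 count in the same way as for CHRNG.

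The other genes of the pathway were taken from 4 lists by function, 80 genes in all, of which 65 could be tested. By limma 2 passed (3.08%, beside 3.41% of all genes), both higher with drug. None was lower, nor by edgeR or DESeq2, which called 3 and 4 of the 65, beside 465 and 623 of all 13930 genes. Of the 65, 25 had log2 fold changes above 0 and 40 below, with a median of -0.03. At an unadjusted p under 0.05 there were 16 of the 65, 9 higher and 7 lower, beside 18.7% of all genes. Without DMSO replicate 1 the number that passed at an adjusted p under 0.05 was 14 (21.5%), 7 in each direction, beside 13.1% of all genes, and 23 had an unadjusted p under 0.05, beside 25.5%.

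Among the 10 other nicotinic subunits 4 could be tested and none passed, and 0 had an unadjusted p under 0.05 by limma, edgeR or DESeq2. CHRNA7, the subunit of homomeric neuronal receptors, was the highest, at 182, 177 and 178 normalized counts in DMSO and 165, 179 and 203 with drug (log2 fold change 0.02, SE 0.12, adjusted p = 0.944), and reads may be shared with its partial copy CHRFAM7A. The log2 fold changes of CHRNA6 and CHRNA10 were 0.31 and -0.19 (adjusted p = 0.672 and 0.788). CHRNA2 was at 0 in all libraries, and CHRNA4, CHRNA9, CHRNB2, CHRNB3 and CHRNB4 had means under 10. The neuronal partners with which the alpha 5 subunit assembles were therefore read at low levels or not at all.

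Of 30 genes of synaptic signalling and scaffold 28 were tested, with a median log2 fold change of -0.01, and COLQ passed by limma, edgeR and DESeq2. By limma 6 of the 28 had an unadjusted p under 0.05, 4 higher and 2 lower, beside 18.7% of all genes. COLQ, the collagen tail that anchors acetylcholinesterase in the synaptic cleft, had 10.1, 13.99 and 10.9 normalized counts in DMSO and 22.3, 26.1 and 43.0 with drug. The groups did not overlap, and drug-treated replicate 3 was the highest library. The mean rose from 11.6 ± 2.07 to 30.5 ± 11.04 (SD, n = 3 each), and the log2 fold change was 1.27 (SE 0.32, adjusted p = 0.0470). That call was lost in 8 alternatives, among them TMM scaling (adjusted p = 0.0507), quantile normalization (0.101) and leaving out any drug-treated replicate (0.128, 0.158 and 0.253). ACHE, the acetylcholinesterase that COLQ anchors, was at 57.7 ± 6.16 and 58.5 ± 5.53 (log2 fold change 0.02, SE 0.18, adjusted p = 0.968). AGRN, which encodes agrin, was at 2071 ± 203 and 1851 ± 145 (log2 fold change -0.16, SE 0.08, adjusted p = 0.309). PLEC, the cytoskeletal linker plectin and the highest gene of the list, had a log2 fold change of 0.07 (SE 0.09, adjusted p = 0.706), which turned to -0.06 without DMSO replicate 1.

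None of the 12 tested genes of receptor assembly and glycosylation, of 16 listed, passed by limma, edgeR or DESeq2, 1 (CANX, lower) had an unadjusted p under 0.05, and their median log2 fold change was -0.07. CALR, a chaperone of the endoplasmic reticulum and the highest of them, was at 19527 ± 1295 and 18133 ± 780 normalized counts (SD, n = 3 each), and the log2 fold change was -0.11 (SE 0.06, adjusted p = 0.384). Without DMSO replicate 1 both CALR and AGRN were called, at -0.16 and -0.24 (adjusted p = 0.00538 and 3.47e-04).

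Of 24 regulators of receptor transcription 21 were tested, with a median log2 fold change of -0.01. By limma 1 passed (ID2), against 2 by edgeR and 3 by DESeq2, and 9 had an unadjusted p under 0.05, 5 higher and 4 lower, beside the 18.7% of all genes. The lowest log2 fold change of the 4 lists was that of GABPB1, the partner subunit of GABPA, at -0.28 (SE 0.09, adjusted p = 0.103). ID2, which binds E proteins and keeps them from E-boxes, had 232, 210 and 214 normalized counts in DMSO and 416, 444 and 404 with drug. Its groups were far apart, and the mean rose from 219 ± 11.8 to 421 ± 20.7 (SD, n = 3 each). The log2 fold change was 0.94 (SE 0.09, adjusted p = 2.8e-04), and the adjusted p was under 0.05 in all 16 analyses. MYOD1, the myogenic factor with the highest level of the list, was at 37118 ± 2368 and 36868 ± 1156 (log2 fold change -0.01, SE 0.06, adjusted p = 0.963). MYOG, which acts later in muscle differentiation, had 11115, 15556 and 14759 normalized counts in DMSO and 15984, 16587 and 15558 with drug, so that DMSO replicate 1 was again the low library. Its log2 fold change was 0.23 (SE 0.10, adjusted p = 0.224), 0.08 without DMSO replicate 1 (adjusted p = 0.196) and 0.32 without DMSO replicate 2 (adjusted p = 0.0498). GABPA, the ETS subunit of the GABP complex that binds the N-box, had a log2 fold change of -0.19 (SE 0.08, adjusted p = 0.214), with all drug-treated libraries lower, and of -0.09 without DMSO replicate 1 (adjusted p = 0.213). ETV5, an ETS factor expressed at the synapse of muscle, had -0.23 (SE 0.07, adjusted p = 0.0967), again with all drug-treated libraries lower, and -0.17 without DMSO replicate 1, where the adjusted p was 0.0300.

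**Figure D4:**
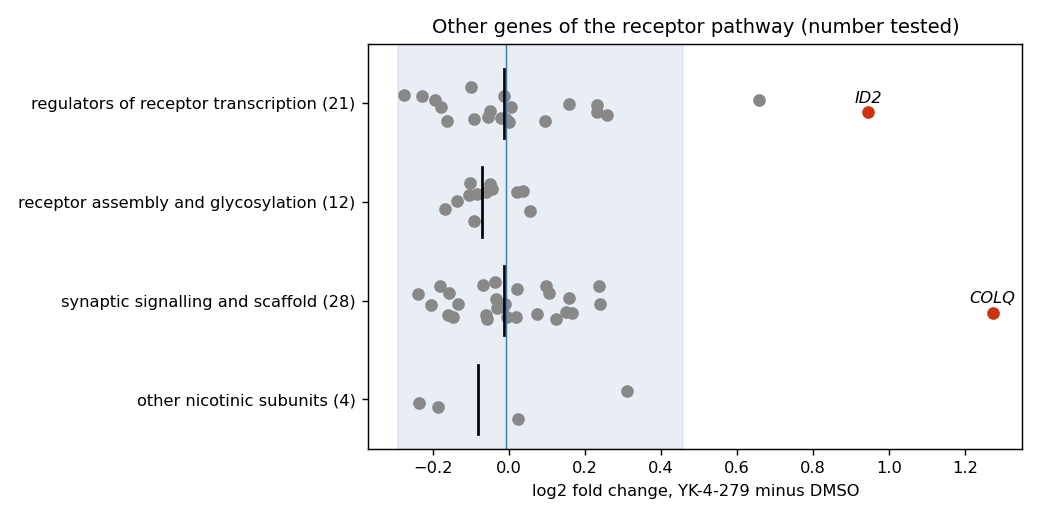
Log2 fold change (x axis, drug minus DMSO) of the 65 other pathway genes tested, 1 point per gene in 4 lists, with a black line at the median of each list, a blue line at the median of all genes and shading from the 5th to the 95th percentile of all genes, -0.29 to 0.46. ID2 at 0.94 and COLQ at 1.27 are drawn in red as the genes with an adjusted p under 0.05, and the list medians lie between -0.08 and -0.01.

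Markers of other cells were examined beside CHRNA5. The 5 motor neuron markers summed to 206 to 264 normalized counts in DMSO and 214 to 241 with drug, and the ranges overlapped. SLC18A3 and SLC5A7, the transporters for acetylcholine and choline, were at 0 in all libraries, and CHAT, the enzyme that makes acetylcholine, had 1 read in all. MNX1 and ISL1, transcription factors, were read in every library, at means of 184 and 57.1 normalized counts in DMSO and 163 and 65.6 with drug. The 5 fibroblast markers summed to 2671 to 2823 and 3047 to 3226, higher in every drug-treated library. COL1A1 and COL3A1 were higher in all drug-treated libraries, LUM and PDGFRA overlapped between the groups, and DCN was near 0 in both. Their part in the results was not tested. In a bulk sample, fewer cells with CHRNA5 RNA and less CHRNA5 RNA per cell cannot be told apart.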

How the data were processed

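Messenger RNA of Rh30 cells, 3 DMSO and 3 drug-treated samples, was sequenced as paired-end reads. The authors aligned them to hg38 with STAR 2.7.9a and used DESeq2 1.44.0, per the labels and methods. The gene annotation is not given in the sources used here. The deposited table is a normalized signal, namely counts divided by a factor per library. It had 35269 rows, and 1 row without a name (at most 6 reads) was left out. Reads recovered from the steps were whole within 0.01 for 100% of values.

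limma 3.58.1 in R 4.3.3 (lmFit, eBayes with trend) was run on log2(normalized count + 1) for 13930 genes with a mean of at least 10, two-sided, with Benjamini-Hochberg adjustment over all of them and a threshold of 0.05. The pseudocount of 1 understates changes of low genes. The code was tested on simulated data.

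The 10 genes and the lists were chosen with earlier results of these data known. Beside the 10 genes and the pathway genes that passed, the genes named were AGRN, ACHE, CHRNA3, CHRNB4, MYOD1, MYOG, GABPA and ETV5, and the highest gene of each list. The protein-coding genes within 250 kilobases of CHRNA5 and the 3 genes most like CHRNA5 were named too. So were the markers of the motor neuron and fibroblast lists, whether at 0 or not. CANX, GABPB1, CHRNA6, CHRNA10 and the subunits under the minimum and the genes that overlap CHRNG and CHRNE were named after their values were seen. Alternatives were a pseudocount of 10, no filter, a mean of at least 100, TMM and quantile scaling, a replicate block, leaving out each library, edgeR 4.0.16 and DESeq2 1.42.0 on recovered reads, and, added after the data were seen, removal, library by library, of a smooth dependence on GC content and transcript length (known for 98.4% of genes). Lengths and positions are from GENCODE on GRCh38, promoters from RefSeq. The results of 2 further marker lists are not reported here.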

Additional observations from a re-analysis of the deposited data

How the results depend on the processing

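Of the 9 genes tested, 1 was called (CHRNA5), beside 3.41% of all genes, and 0 to 2 were called when 1 library was left out. There were 2 without DMSO replicate 1, beside 13.1% of all genes. Without drug-treated replicate 1, 2 or 3 there were 0, beside 0.137%, 0.180% and 0.331%. Nothing is read from these counts. With the trend on GC content and length removed, an analysis chosen after the data were seen, 3 were called (CHRNA5, CHRNB1 and MUSK). That stood beside 1605 of the 13705 genes in that fit, and 12 of the pathway genes were called (6 in each direction). Over all genes 475 passed, 299 lower and 176 higher, against 277 under quantile normalization and 180 with the replicate block, and 19 to 1827 when 1 library was left out. Those were 1827 without DMSO replicate 1, 242 without DMSO replicate 3, and 19, 25 and 46 without drug-treated replicates 1, 2 and 3. Of the calls, 37.1% were higher, against 47.7% under quantile normalization and 78.9%, 64.0% and 60.9% without drug-treated replicates 1, 2 and 3. Of the pathway genes 2 passed, against 1 (ID2) with no filter, a mean of at least 100, TMM scaling, quantile normalization or the replicate block, 4 by DESeq2, 3 by edgeR, and 1 to 14 when 1 library was left out. The cause of these shifts was not tested. Deviations of same-numbered libraries correlated at -0.098, -0.027 and -0.027. With 3 libraries per group this cannot settle whether the replicate numbers pair the samples. With the replicate block 1 of the 9 genes tested was called (CHRNA5), beside 180 of all 13930. Nothing is read from that call, since CHRNA5 was picked on this contrast. Depth limits CHRNE most, with at most 4 reads in any library.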
